A study of Mus musculus with 4 samples.

Results

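The genes described here are the ATP-binding cassette (ABC) genes, among them the efflux pumps of the blood-brain barrier. They were measured in cells sorted from mouse brain to obtain endothelial cells (ECs). A gene was a member if its symbol was Abc, a subfamily letter from a to g, a number and at most 1 further letter. This rule found 29 genes among the 12693 gene symbols of the expression table. The rule itself used no measured value, but the table held no gene with fewer than 21 reads in total. The members were also chosen with earlier results of these data known. By subfamily, 7 members were of A, 6 of B, 6 of C, 4 of D, 1 of E, 3 of F and 2 of G. The GRCm38 annotation used here holds 50 symbols of this form, and the other 21, among them *Abcb1b*, *Abcb4*, *Abcc2* and *Abcc3*, were not analysed here.

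RNA-seq was compared between 2 wild-type samples and 2 samples with a conditional deletion of the forkhead transcription factor gene *Foxq1* (*Foxq1* cKO), to ask which transcripts depend on *Foxq1* in these cells. All 4 samples were cells sorted for the endothelial surface protein CD31 from the cerebral cortex of C57BL/6 embryos at embryonic day 18. The labels give the tissue as brain and the genotypes as WT and FOXQ1fl/fl;Tie2-Cre. In the *Foxq1* cKO samples both *Foxq1* alleles carried loxP sites, and Cre was driven by the Tie2 promoter, which is active in ECs and also in part of the blood lineage. According to the methods of the study, controls were littermates that lacked the Cre transgene, and whether they carried loxP sites is not given in the sources used here. No source ties the 2 samples of a group to separate embryos or litters, so p-values measure the spread between these samples, which may be partly technical.

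ABC proteins bind and hydrolyse ATP, and most use it to move a substrate across a membrane. In the endothelium of the brain, P-glycoprotein (*Abcb1a*), the breast cancer resistance protein (*Abcg2*) and members of subfamily C sit at the cell surface. These pumps return drugs, conjugates and other compounds to the blood. Other members export sterols and phospholipids, serve mitochondria, lysosomes and peroxisomes, or regulate potassium channels, and subfamilies E and F act on ribosomes and cross no membrane.

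Each sample had between 15827166 and 21466436 reads on listed genes, and values are given as normalized counts, that is reads divided by a size factor per sample of between 0.919 and 1.19. *Foxq1* was at 353 and 297 normalized counts in wild-type samples, against 5.44 and 32.6 in the *Foxq1* cKO samples. The difference was -4.47 on the log2 scale (limma p 0.00507 unadjusted, 0.857 after adjustment). The adjusted p of *Foxq1* was 0.00854 in DESeq2 and 0.937 in edgeR. Over all genes, wild-type 2 and *Foxq1* cKO 2 were more alike (correlation of log2 values 0.904) than the 2 wild-type samples (0.847), and wild-type 1 stood apart from the other samples with correlations of at most 0.859. All 12 endothelial markers were measured, and the claudin gene *Cldn5* was between 126706 and 151977 normalized counts. Transcripts of pericytes were also abundant, with the pericyte gene *Rgs5* between 89164 and 93044. In bulk samples of this kind, fewer cells of a type and less RNA per cell cannot be told apart.

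All 29 ABC genes passed the filter of a mean of at least 10 normalized counts, and their levels covered a wide range. To compare genes with each other, values were divided by the length of the gene's exons in kb. *Abca1*, an exporter of cholesterol and phospholipid, was the highest of the ABC genes at a mean of 1395 normalized counts per kb over the 4 samples. It was followed by *Abcf2* at 1236, *Abcc9* at 1062 and *Abcb1a* at 956. Then came *Abcg1* at 781 and *Abcg2* at 746, whose ranges over the samples overlapped. *Abcg1* was between 615 and 1001 per kb, and *Abcg2* was between 659 and 810. The lowest member was *Abcb6* at 4.29 per kb. *Abce1*, the single member of its subfamily, was at 389 normalized counts per kb. Without the division by length, 5 genes (*Abca1*, *Abcc9*, *Abcg2*, *Abcg1* and *Abcb1a*) held 66.2% of all normalized counts of the ABC genes.

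**Figure D1:**
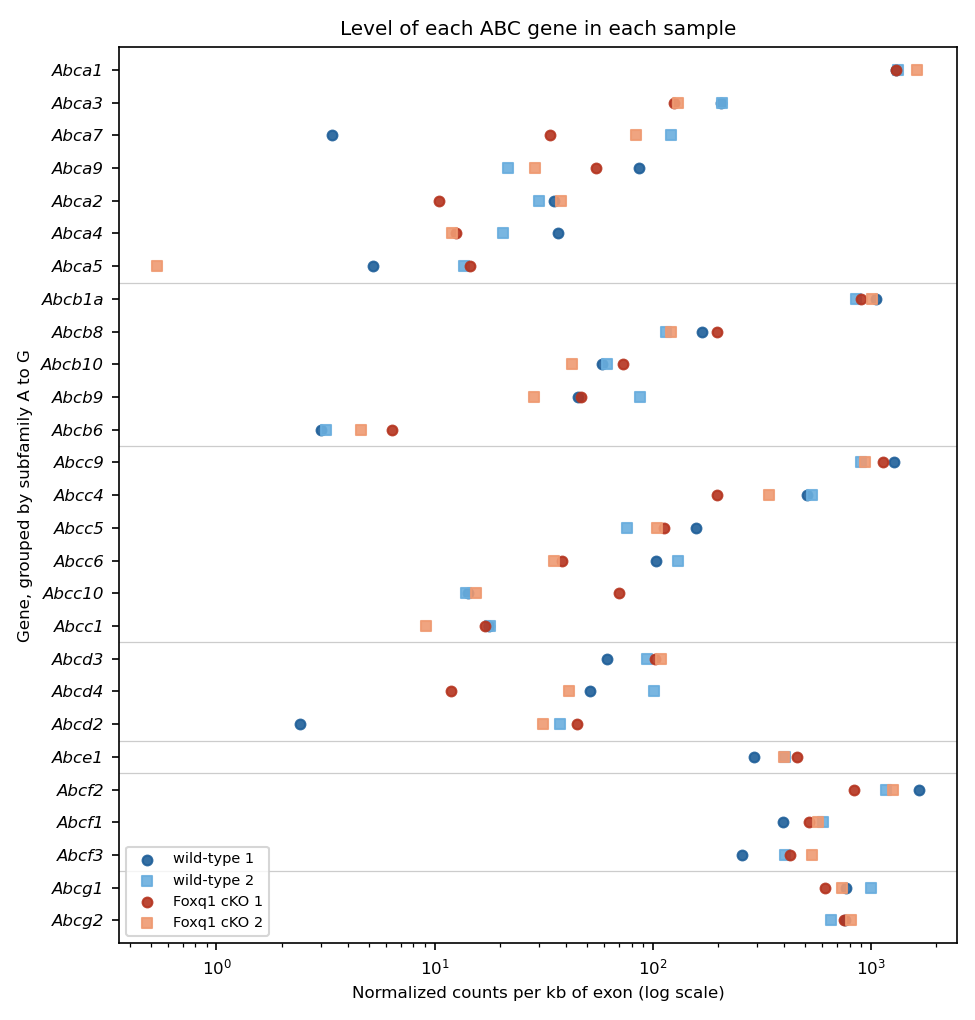
Level of 27 ABC genes in each of the 4 samples, in normalized counts per kb of exon on a log axis, with genes grouped by subfamily and 1 symbol per sample. The abundant genes, such as *Abcb1a* at a mean of 956 per kb, have their 4 symbols close together, and low genes such as *Abca7* and *Abcd2* have 1 sample far to the left.

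The sum over all ABC genes was 63192 and 61613 normalized counts in wild-type samples, against 56487 and 62620 with *Foxq1* deleted. The 2 groups overlapped in this sum. The median log2 fold change of the 29 genes (*Foxq1* cKO minus wild-type) was -0.06, beside 0.01 over all 12472 genes tested, and 13 members had a positive and 16 a negative value. Of the 29 genes, 3 had an unadjusted p under 0.05 in limma, and all were lower in *Foxq1* cKO cells: *Abcc6*, *Abcc4* and *Abca3*. These 3 were 10.3% of the members, while 5.22% of all genes tested were called in either direction and 3.05% were called lower. No member was called higher at this threshold, where 2.17% of all genes were. After Benjamini-Hochberg adjustment over all genes no member passed in limma, and the adjusted p of each of the 3 genes was 0.857. On the reads recovered from the values, edgeR also gave 3 members lower and 0 higher at an unadjusted p under 0.05 (2.99% and 1.99% of all genes, 4.98% in either direction). DESeq2 gave 4 lower and 0 higher (3.77% and 2.72% of all genes, 6.49% in either direction), the fourth gene being *Abcd4*. Neither gave a member at an adjusted p under 0.05, where DESeq2 had 0.465% of all genes. An exact permutation test of a single gene with 2 samples against 2 cannot give a p below 0.333.

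**Figure D2:**
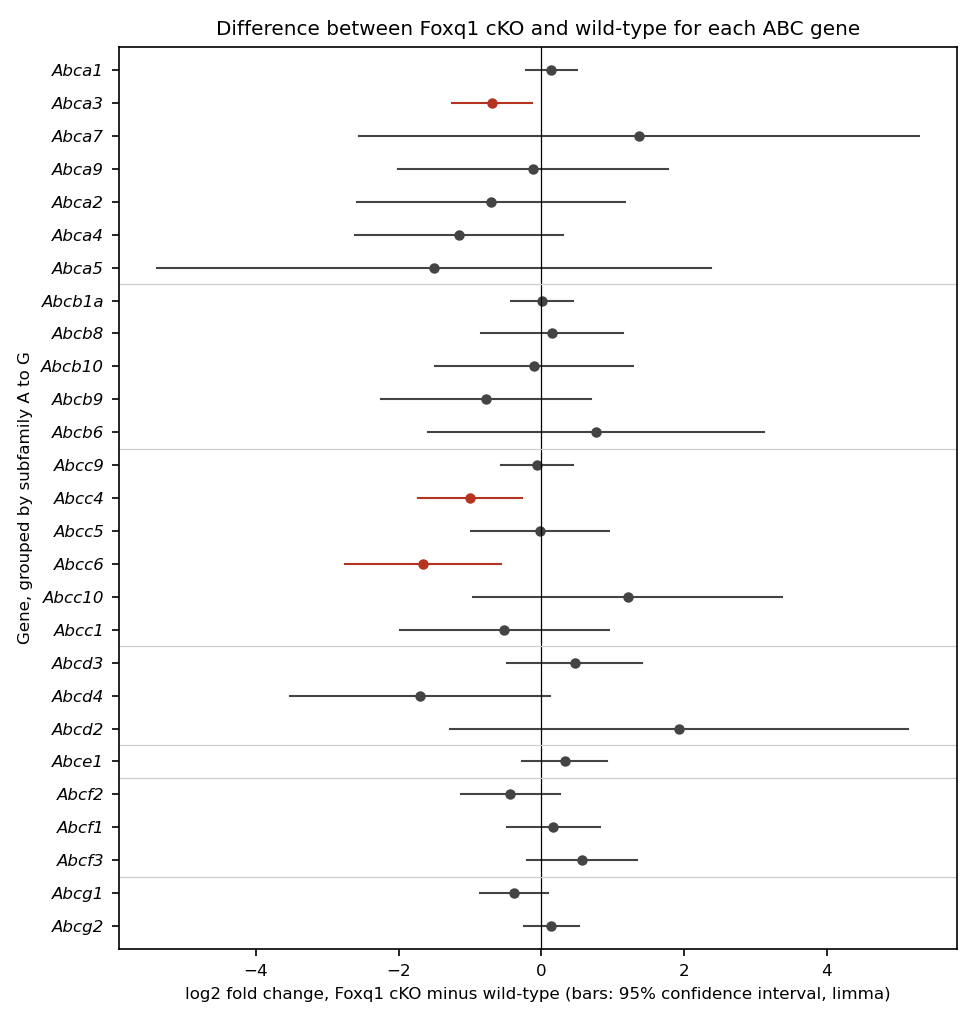
Difference between *Foxq1* cKO and wild-type samples for 27 ABC genes as a log2 fold change on the horizontal axis (points), with its 95% confidence interval from limma (bars) and with genes at an unadjusted p under 0.05 in red. The intervals of *Abcc6*, *Abcc4* and *Abca3* lie below 0, and those of the other 24 genes cross it.

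The efflux pumps *Abcc6* and *Abcc4* of subfamily C were the called genes with the largest differences. *Abcc6* encodes a transporter whose activity in liver releases ATP into the circulation and whose loss causes ectopic calcification. It was at 592 and 748 normalized counts in wild-type samples, against 219 and 201 in the *Foxq1* cKO samples. Both *Foxq1* cKO samples lay below both wild-type samples, and the difference between the groups was larger than that between samples of a group. The means were 669.6 ± 110.4 and 210.1 ± 12.3 (SD, n = 2 each), so that the level in *Foxq1* cKO samples was 31.4% of wild-type. The log2 fold change was -1.66 (SE 0.45, 95% interval -2.75 to -0.57) and the limma p was 0.00961 unadjusted and 0.857 after adjustment. By p it ranked 106 among all genes tested. Whichever sample was left out, *Abcc6* kept an unadjusted limma p between 0.0155 and 0.0423.

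*Abcc4*, which exports cyclic nucleotides, prostaglandins and conjugated compounds and is known from the capillaries of the brain, was at 3249 and 3427 normalized counts in wild-type samples. With *Foxq1* deleted it was at 1265 and 2183. The groups did not overlap, but the *Foxq1* cKO samples differed from each other by 1.73-fold where the wild-type samples differed by 1.05-fold. The log2 fold change was -1.01 (SE 0.30, 95% interval -1.73 to -0.28) and the limma p was 0.0147 unadjusted and 0.857 after adjustment. The size of the difference depended on the *Foxq1* cKO sample. The log2 fold change was -0.61 without *Foxq1* cKO 1 and -1.40 without *Foxq1* cKO 2. The call was lost without *Foxq1* cKO 1, a fit that leaves 1 sample in that group. With all samples the DESeq2 p was 0.00216 unadjusted and 0.201 after adjustment.

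*Abca3*, known for loading phospholipid into the lamellar bodies of the lung, was the third gene. It was at 1931 and 1947 normalized counts in wild-type samples, against 1179 and 1219 in the *Foxq1* cKO samples. The samples within each group were nearly equal, and the groups were separate. The log2 fold change was -0.69 (SE 0.23, 95% interval -1.25 to -0.14) and the limma p was 0.0227 unadjusted and 0.857 after adjustment. Without any single sample the log2 fold change stayed between -0.72 and -0.67, and the unadjusted limma p was between 0.0574 and 0.0955, above the threshold in all 4 cases. Of the 50-base stretches in *Abca3* transcripts, 10.1% also occurred in transcripts of other genes, mainly those of *D330041H03Rik*, which overlaps it on the opposite strand. *Abcc6* had none, and in *Abcc4* they were 0.125%. Whether the authors' counting used strand is not given in the sources used here, so reads of *Abca3* and of its overlapping partner may not be separable.

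Summed markers of ECs, neurons, microglia and macrophages, and neural progenitors and glia were at lower values in both *Foxq1* cKO samples. So was the sum over all genes listed, at 18088125 and 17846555 normalized counts in wild-type samples, against 17230288 and 17257043 in *Foxq1* cKO samples. The summed level of the 12 endothelial markers was 386869.5 and 357424 normalized counts in wild-type samples, against 309614 and 348778 in *Foxq1* cKO samples. Both *Foxq1* cKO samples were lower, 11 of the 12 markers had a negative log2 fold change (median -0.18), and *Flt1* was called at -0.48. Neuron markers (9 of 12 listed, *Gad1* and *Tbr1* not among them, none called) summed to 6371 and 5844 in wild-type samples. In *Foxq1* cKO samples they summed to 4308 and 5809.7, the second only slightly below wild-type 2. Of 12 markers of microglia and macrophages, all were listed and 1 was called, *Csf1r* at -0.83. Of the 12, 6 had a positive and 6 a negative log2 fold change, with a median of -0.03 and a highest value of 2.38. Their summed level was 10492 and 13104 in wild-type samples, against 8095 and 9141 in *Foxq1* cKO samples. Of 11 markers of neural progenitors and glia, 9 were listed (all but *Eomes* and *Olig2*) and *Gfap* was called at -1.19, with a summed level of 23069 and 22952 in wild-type samples, against 18465 and 20205 in *Foxq1* cKO samples. Fibroblast markers (5 of 7 listed, all but *Dcn* and *Lum*, none called) were between 5799.5 and 10063 and overlapped, as did the 7 erythroid markers, between 15769.7 and 20859. Their part in the values of *Abcc6*, *Abcc4* and *Abca3* was not tested.

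Because the deleted gene encodes a forkhead factor, the sequence before the start of 2 of these genes is shown beside that of *Abcb1a*, an abundant pump that did not separate. The RefSeq promoter table (GRCm38.p6) held windows of 300 bases, 250 before the start and 50 after it, for 21 of the 29 members, 27 windows in all. It held none for *Abcc6*. Each line below gives the 250 bases before the annotated start, 5′ to 3′ on the strand of the gene, with the GC box (GGGCGG or CCGCCC), the forkhead core (TGTTTA or TAAACA) and the letters GTTTC or GAAAC, a motif that the study names for FOXQ1, in capitals. For *Abcc4* the table held a second start, whose stretch (chr14:118676932-118677181, not printed) lies within a window with 0 GC boxes, 0 forkhead cores, 1 GTTTC and 6 CpG dinucleotides, against 41 CpG in the window of the start shown.
*Abcc4*, chr14:118706220-118706469, minus strand: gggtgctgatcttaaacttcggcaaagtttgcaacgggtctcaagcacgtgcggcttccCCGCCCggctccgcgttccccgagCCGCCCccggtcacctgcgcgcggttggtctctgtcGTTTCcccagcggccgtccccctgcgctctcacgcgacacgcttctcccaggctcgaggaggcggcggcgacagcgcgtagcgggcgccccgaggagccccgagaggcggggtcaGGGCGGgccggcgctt
*Abca3*, chr17:24351773-24352022, plus strand: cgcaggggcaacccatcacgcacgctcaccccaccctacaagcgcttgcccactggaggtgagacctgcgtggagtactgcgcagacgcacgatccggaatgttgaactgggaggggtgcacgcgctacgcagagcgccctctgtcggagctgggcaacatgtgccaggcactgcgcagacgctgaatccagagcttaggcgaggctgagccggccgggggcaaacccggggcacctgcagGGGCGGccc
*Abcb1a*, chr5:8566841-8567090, plus strand: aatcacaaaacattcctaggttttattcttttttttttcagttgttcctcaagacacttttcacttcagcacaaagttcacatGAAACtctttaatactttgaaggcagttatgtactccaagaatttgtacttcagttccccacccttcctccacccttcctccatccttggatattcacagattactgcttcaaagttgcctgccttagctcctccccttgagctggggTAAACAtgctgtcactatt
The stretch of *Abcc4* shown held GC boxes, 1 GTTTC and no forkhead core. That of *Abca3* held a GC box and neither of the others. That of *Abcb1a* held 1 forkhead core, read on the opposite strand, which began 19 bases before the start, 1 GAAAC and no GC box. The windows of *Abcg2*, another abundant pump whose groups overlapped, held no forkhead core. *Abcb1a* therefore does not stand for all members that did not separate.

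Across the 27 windows of ABC genes, the forkhead core was found on either strand in 3 (11.1%), those of *Abca1*, *Abca9* and *Abcb1a*, against 13.4% of all 32851 windows. GTTTC or GAAAC was in 16 of the 27 (59.3%) and in 45.0% of all windows. GC boxes were present in 17 of the 27 windows (63.0%) and in 35.7% of all windows. The core of the xenobiotic response element (GCGTG or CACGC) was in 33.3% of the windows of ABC genes and 32.4% of all. The TATA box (TATAAA or TTTATA) was in 18.5% and 13.6%. The median number of CpG dinucleotides was 23 in the windows of ABC genes and 7 over all windows. These are matches of letters in a window and do not show binding, and windows of 1 gene can share bases. The windows of ABC genes came only from genes listed in the expression table, whereas the set of all windows was not limited to listed genes. The sets are therefore unlike, and whether the shares of GC boxes and the CpG numbers differ from those of other listed genes was not tested.

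The other efflux pumps of the list did not separate, or separated without passing the test. *Abcb1a*, the main P-glycoprotein gene of brain capillaries in the mouse, was at 5790 and 4675 normalized counts in wild-type samples, against 4916 and 5578 in the *Foxq1* cKO samples. The *Foxq1* cKO samples lay between the wild-type samples, and the log2 fold change was 0.01 (95% interval -0.43 to 0.45), an interval from 0.742 to 1.37 as a fold. *Abcb1a* shares sequence with its neighbours: 22.5% of its 50-base stretches also occurred in other transcripts, those of *Abcb1b*, *Gm42686* and *Abcb4*. *Abcg2* was at 6220 and 5372 normalized counts in wild-type samples, against 6124 and 6603 in *Foxq1* cKO samples. These groups overlapped as well, with a log2 fold change of 0.14 (95% interval -0.25 to 0.52), or 0.843 to 1.44 as a fold. For both pumps, a fold of 0.498, as fitted for *Abcc4*, lay outside the 95% interval.

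*Abcc1*, a pump of glutathione conjugates and leukotrienes, was at 269 and 271 normalized counts in wild-type samples, against 257 and 137 in *Foxq1* cKO samples. Both *Foxq1* cKO samples were below wild-type, 1 of them only slightly, and the log2 fold change was -0.52 (SE 0.60, unadjusted limma p 0.419). *Abcc5*, an exporter of cyclic nucleotides, was at 1691 and 817 in wild-type samples, against 1206 and 1115 in *Foxq1* cKO samples. Here the *Foxq1* cKO samples lay between the wild-type samples, which differed by 2.07-fold. *Abcc10*, a broad pump of lipophilic drugs, was at 97.7 and 95.7 in wild-type samples, against 478 and 106 in *Foxq1* cKO samples. Its log2 fold change of 1.21 (SE 0.89, unadjusted limma p 0.221) rested on *Foxq1* cKO 1 and was 0.13 without that sample. The median log2 fold change of all 7 efflux pumps measured was -0.02. Of the 7, 2 were thus called lower (*Abcc6* and *Abcc4*), where 3.05% of all genes were, and 5 were not called. The members were chosen with earlier results of these data known, so this share is a description and not a test. Of these 2 calls, that of *Abcc4* was lost without *Foxq1* cKO 1 and with eBayes without a trend (unadjusted p 0.0668). The summed level of the 7 pumps was 17908 and 15404 normalized counts in wild-type samples, against 14465 and 15924 in *Foxq1* cKO samples, which overlapped.

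**Figure D3:**
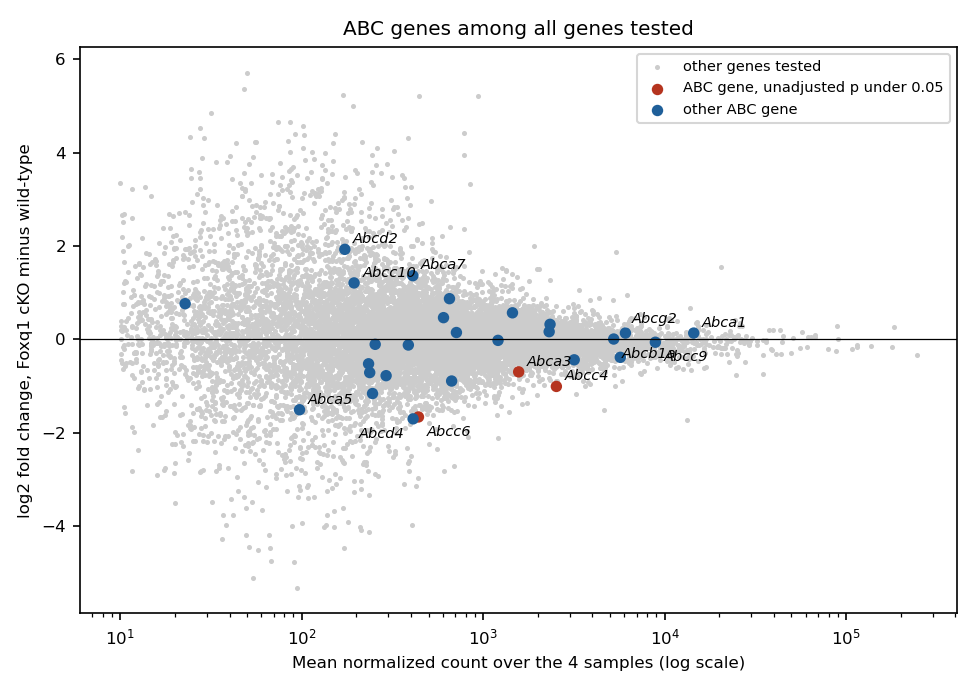
Log2 fold change (*Foxq1* cKO minus wild-type, vertical axis) against the mean normalized count over the 4 samples (log axis) for all 12472 genes tested in grey, with the ABC genes in red at an unadjusted p under 0.05 and in blue otherwise. *Abcc6*, *Abcc4* and *Abca3* lie in the lower part of the grey cloud at their level, and *Abca1*, *Abcc9*, *Abcg2* and *Abcb1a* lie close to 0.

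The lipid transporters held the most abundant member and the widest scatter. *Abca1* was at 13581 and 13871 normalized counts in wild-type samples, against 13472 and 16913 in *Foxq1* cKO samples. *Foxq1* cKO 2 was the highest and the other samples were nearly equal, giving a log2 fold change of 0.14 (95% interval -0.22 to 0.50). *Abcg1*, which passes sterol to lipoprotein particles, was at 5618 and 7303 in wild-type samples, against 4492 and 5376 in *Foxq1* cKO samples. Its groups did not overlap, but the gap between them was smaller than the spread within either group, and the log2 fold change was -0.38 (SE 0.20, unadjusted limma p 0.0984). *Abca4*, a retinoid and phospholipid flippase known from photoreceptors, was at 442 and 246 in wild-type samples, against 150 and 144 in *Foxq1* cKO samples. It did not overlap either, with a log2 fold change of -1.16 and an unadjusted limma p of 0.1004. Of the 8 lipid transporters, 1 (*Abca3*) was called lower, where 3.05% of all genes were, and 7 were not called. The median log2 fold change was -0.54, beside 0.01 over all genes tested, with 2 positive and 6 negative values. The summed level of the 8 genes was 22646 and 24770 normalized counts in wild-type samples, against 20217 and 24774 in *Foxq1* cKO samples, which overlapped.

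The remaining lipid transporters had low or unsteady values. *Abca7*, linked to phospholipid export and phagocytosis, was at 22.8 and 821 normalized counts in wild-type samples, against 228 and 567 in *Foxq1* cKO samples. Its wild-type samples enclosed both *Foxq1* cKO samples and differed from each other by 36.1-fold. Its log2 fold change was 1.37 (SE 1.61) in limma and -0.09 in both edgeR and DESeq2, so it has no settled direction. *Abca5*, a lysosomal member, was at 59.8 and 157 in wild-type samples, against 167 and 6.10 in *Foxq1* cKO samples. The value in *Foxq1* cKO 2 stood for 6 reads, and without that sample its log2 fold change turned from -1.50 (SE 1.59) to 0.78. In DESeq2 and edgeR, with all samples, it was -0.33. *Abca2*, a lysosomal sterol transporter of myelinating cells, was between 251 and 294 in wild-type samples, against 87.1 and 315 in *Foxq1* cKO samples. *Abca9*, a member of the cluster of genes around *Abca6* and *Abca5*, was at 697 and 174 in wild-type samples, against 443 and 233 in *Foxq1* cKO samples. In both genes the groups overlapped, with unadjusted limma p of 0.392 and 0.884.

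Among the transporters of mitochondria and lysosomes, no gene of 5 was called in either direction. *Abcb8*, of the mitochondrial inner membrane, was at 795 and 547 normalized counts in wild-type samples, against 929.7 and 576 in *Foxq1* cKO samples. *Abcb10*, which supports heme synthesis, was at 251 and 266 in wild-type samples, against 316 and 183 in *Foxq1* cKO samples. The groups of both genes overlapped. *Abcb9*, a lysosomal peptide transporter, was at 255 and 487 in wild-type samples, against 263 and 161 in *Foxq1* cKO samples, with a log2 fold change of -0.77 (SE 0.60). *Abcb6*, a porphyrin transporter, was at 16.0 and 16.9 in wild-type samples, against 33.7 and 24.4 in *Foxq1* cKO samples. Its groups did not overlap, but it had only between 17 and 31 reads in a sample, its log2 fold change was 0.77 (SE 0.96), and 50.01% of its 50-base stretches lay also in *Gm29253*, which overlaps it on the same strand.

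Subfamily D brings very long chain and branched fatty acids into peroxisomes, apart from *Abcd4*, which acts with cobalamin in lysosomes. *Abcd4* was at 411 and 809 normalized counts in wild-type samples, against 94.7 and 330 in *Foxq1* cKO samples. Its log2 fold change of -1.70 (SE 0.75) was the largest negative value of the 29 genes in limma. In DESeq2 and edgeR it was -1.52, and that of *Abcc6* was larger at -1.67. Each *Foxq1* cKO sample was below both wild-type samples, although samples of a group differed by 1.97-fold and 3.48-fold, and its unadjusted p was 0.0628 in limma, 0.0856 in edgeR and 0.0287 in DESeq2. *Abcd3*, an abundant protein of the peroxisomal membrane, was at 409 and 618 in wild-type samples, against 675 and 716 in *Foxq1* cKO samples (log2 fold change 0.47, unadjusted limma p 0.274). Its groups did not overlap, and wild-type 1 was the lowest sample by some distance. *Abcd2*, also a fatty acid transporter of peroxisomes, was at 14.3 in wild-type 1 and between 186 and 267 in the other 3 samples. Its log2 fold change of 1.93 (SE 1.32) was the largest positive value of the 29 genes in limma and was -0.01 without wild-type 1. On the reads it was 0.93 in DESeq2 and 0.92 in edgeR, below that of *Abcc10* at 1.59 in both.

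The members without membrane spans were among the steadier genes. *Abce1*, which splits ribosomes after termination, was at 1741 and 2435 normalized counts in wild-type samples, against 2761 and 2407 in *Foxq1* cKO samples (log2 fold change 0.32, 95% interval -0.28 to 0.92). *Abcf1*, a factor of translation initiation, was at 1737 and 2666 in wild-type samples, against 2306 and 2531 in *Foxq1* cKO samples (0.17, 95% interval -0.48 to 0.82). The groups of both genes overlapped. *Abcf2* was at 4270 and 3013 in wild-type samples, against 2159.9 and 3255 in *Foxq1* cKO samples (-0.44, 95% interval -1.13 to 0.26), and its groups overlapped. *Abcf3*, a relative of a yeast factor in the response to amino acid shortage, was at 916 and 1444 in wild-type samples, against 1519.8 and 1921 in *Foxq1* cKO samples. Its groups did not overlap, and its log2 fold change was 0.57 (SE 0.32, unadjusted limma p 0.121). None of these 4 genes was called.

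*Abcc9* encodes the sulfonylurea receptor SUR2, the regulatory subunit of the ATP-sensitive potassium channel of pericytes and smooth muscle. It was at 10662 and 7571 normalized counts in wild-type samples, against 9488 and 7839 in *Foxq1* cKO samples. The groups overlapped, and the log2 fold change was -0.06 (95% interval -0.56 to 0.44). *Kcnj8*, the pore subunit of the same channel, was between 15038 and 18074 over the 4 samples, with a log2 fold change of -0.09. In the brain *Abcc9* is best known from pericytes, and pericyte markers were measured beside it: 9 of 11 were listed, all but *Acta2* and *Tagln*, none was called, and their summed level was 152903 and 152745 normalized counts in wild-type samples, against 158033 and 145363 in *Foxq1* cKO samples. *Kcnj8* is itself one of these markers.

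Of the 29 genes, 7 had both *Foxq1* cKO values below both wild-type values (*Abca3*, *Abca4*, *Abcc1*, *Abcc4*, *Abcc6*, *Abcd4* and *Abcg1*), which is 24.1% beside 18% of all genes tested. Another 5 had both above, among them *Abcb6*, *Abcc10*, *Abcd3* and *Abcf3*, which is 17.2% beside 18% of all genes. The groups of the other 17 overlapped. In either direction 36.0% of all genes tested had groups that did not overlap, so these shares were near the background.

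How far a value could be trusted depended on the level. In 10 of the 29 genes the 2 samples of a group differed by more than 2-fold, 6 between the wild-type samples and 6 between the *Foxq1* cKO samples. Over all genes tested, 28.2% differed by more than 2-fold between the wild-type samples and 20.2% between the *Foxq1* cKO samples. Among the 12 members with a mean of at least 1000 normalized counts only *Abcc5* did so, and the median SE of the log2 fold change was 0.24. Among the 17 lower members 9 did so, and the median SE was 0.75. The limma fit draws each SE towards a trend on level, so the SEs partly reflect that trend. The steep values were not all in 1 sample: wild-type 1 was very low for *Abca7* and *Abcd2*, *Foxq1* cKO 1 was low for *Abca2* and *Abcd4* and high for *Abcc10*, and *Foxq1* cKO 2 was low for *Abca5*. For 7 members at least 1 sample had fewer than 100 reads. Without wild-type 2, 4 genes, among them *Abca7*, *Abcd2* and *Abcf3*, were at an unadjusted limma p under 0.05 as higher, which none was with all samples. In that fit 7.88% of all genes were called higher and 4.7% lower (12.6% in either direction), against 2.17% and 3.05% with all samples. Without wild-type 1, the sample that stood apart, 4 genes were lower (*Abcc6*, *Abcc4*, *Abcd4* and *Abcg1*) and 0 higher, beside 2.53% and 4.09% of all genes (6.62% in either direction).

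**Figure D4:**
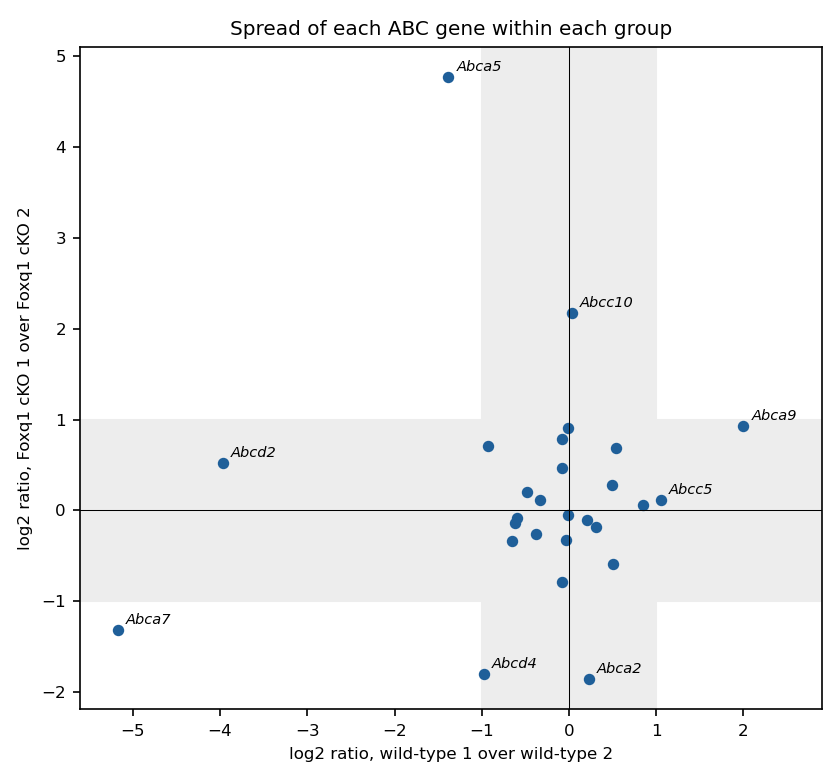
Log2 ratio of the 2 wild-type samples (horizontal axis) against the log2 ratio of the 2 *Foxq1* cKO samples (vertical axis) for 27 ABC genes, with the bands within 2-fold shaded. The 8 genes outside a band are named; *Abca7* and *Abcd2* lie far left, *Abca5* and *Abcc10* lie high, and *Abca2* and *Abcd4* lie low.

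Genes that act with ABC proteins were taken from 8 lists, of which 96 genes were tested. Among these, 3 were higher and 6 were lower at an unadjusted p under 0.05 in limma, beside 2.17% and 3.05% of all genes, and none passed the adjustment there. *Tap1* and *Tap2* are ABC genes by protein, which together form the peptide transporter that feeds MHC class I, and fall outside the symbol rule. *Tap1* was at 136 and 253 normalized counts in wild-type samples, against 520.4 and 524 in *Foxq1* cKO samples (log2 fold change 1.49, unadjusted p 0.032). Its partner *Tapbp* was at 3199 and 4252 in wild-type samples, against 7125 and 6140.3 in *Foxq1* cKO samples (0.84, p 0.00559). *Tap1* was called with 1 of the 4 samples left out in turn (wild-type 2), and *Tapbp* with each of them. Both *Foxq1* cKO samples were above both wild-type samples in these 2 genes. The call of *Tapbp* was lost with eBayes without a trend (unadjusted limma p 0.0604). *Tap2*, in contrast, was at 377 and 934 in wild-type samples, against 419 and 1122 in *Foxq1* cKO samples, and overlapped.

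Of 11 solute carriers that work beside efflux pumps, 3 were called lower and none higher, where 3.05% and 2.17% of all genes were. The list was written with earlier results of these data known, so this count is not a test of such carriers. The prostaglandin carrier *Slco2a1* was at 7706 and 7533 normalized counts in wild-type samples, against 3889 and 4292 in *Foxq1* cKO samples (log2 fold change -0.90, unadjusted p 0.000973 and adjusted p 0.857 in limma, adjusted p 0.00301 in DESeq2). The nucleoside carrier *Slc29a1* was at 13504 and 15020.0 in wild-type samples, against 9868 and 9068 in *Foxq1* cKO samples (-0.59). *Slc29a4*, a carrier of monoamines and adenosine, was at 700.2 and 528 in wild-type samples, against 129.5 and 273 in *Foxq1* cKO samples (-1.69). Each of these 3 carriers had both *Foxq1* cKO samples below both wild-type samples, but *Slc29a4* was not called without wild-type 1 or without *Foxq1* cKO 1. Of 11 sterol handling genes, 2 were called lower, *Apoe*, the lipoprotein that accepts sterol from *Abca1* and *Abcg1*, at -0.60, and the lipoprotein receptor *Scarb1* at -0.35. The call of *Scarb1* was lost in DESeq2 (unadjusted p 0.0508) and whichever of the 4 samples was left out. With eBayes without a trend, the calls of *Slc29a1*, *Apoe* and *Scarb1* were lost (unadjusted limma p 0.106, 0.110 and 0.275). *Apoe* is also a gene of microglia and astrocytes. Summed markers of microglia and macrophages and of neural progenitors and glia were lower in both *Foxq1* cKO samples. Of those of microglia and macrophages, 6 of 12 had a positive log2 fold change, as given above. The part of these cells in the values of *Apoe*, *Abca1* or *Abca2* was not tested.

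The other lists held few called genes. Of 13 peroxisomal genes only *Acaa1b* was called, at 13.5 and 2.99 normalized counts in wild-type samples, against 57.7 and 42.7 in *Foxq1* cKO samples, which is a low level (log2 fold change 2.74, unadjusted limma p 0.0493). In DESeq2 its unadjusted p was 0.164, and with 1 sample left out it was called only without wild-type 1. Of 25 genes of iron-sulfur and heme synthesis only *Ciapin1*, an assembly factor of cytosolic iron-sulfur proteins, was called, at -0.77, and not without *Foxq1* cKO 2. *Ciapin1* was also not called with eBayes without a trend (unadjusted limma p 0.0819). Of 12 receptors and transcription factors that control ABC genes none was called. The smallest p among them was that of *Nr1h2*, the liver X receptor beta that drives *Abca1* and *Abcg1*, at 0.0507 with a log2 fold change of -0.43. The xenobiotic receptors *Nr1i2* and *Nr1i3* were not analysed here. None of 9 genes of ribosome recycling was called (smallest p 0.115, *Gspt1*) and none of 11 genes of glutathione conjugation (smallest p 0.086, *Mgst3*).

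**Figure D5:**
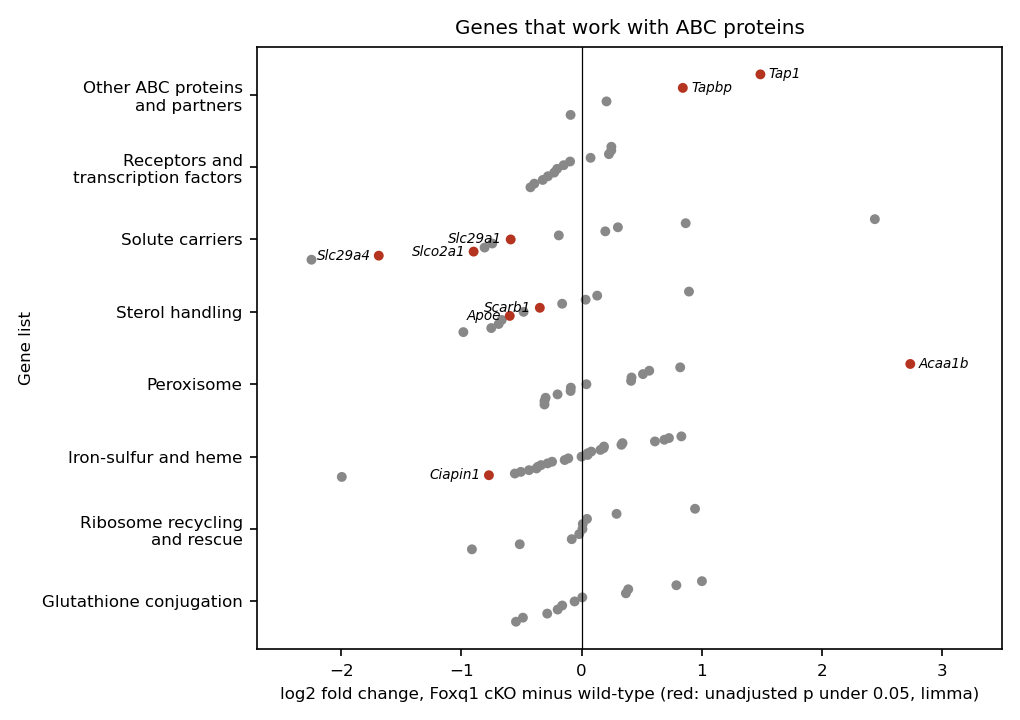
Log2 fold change (*Foxq1* cKO minus wild-type, horizontal axis) of the 96 tested genes that act with ABC proteins, 1 point per gene, grouped by list and spread vertically for legibility only. The 9 genes at an unadjusted p under 0.05 in limma are red and named, 3 to the right of 0 and 6 to the left.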

How the data were processed

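RNA was sequenced from CD31-sorted E18 cortical cells, 2 wild-type and 2 *Foxq1* cKO samples. The submitters' processing notes name Bowtie2 2.2.3, TopHat2 2.0.12, HTSeq 0.6.0 and the build mm9, with no account of roles. The authors deposited 1 table of normalized signal per gene, each gene repeated over many lines (1207361 in all), which were collapsed to 1 row per symbol. The paper names Smart-seq2 and the labels a total RNA protocol, and which made the libraries is not settled here.

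In each sample all values were whole multiples of the value of 1 read (100% within 0.01 reads), so read counts were recovered. In wild-type 2 the step is close to 1, and recovery there rests on these values alone. Depth was between 15827166 and 21466436 reads on listed genes. No listed gene had fewer than 21 reads in total, so losses below that could not be seen, and counting error is a lower limit on the error since reads are amplified.

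Tests used limma 3.58.1 in R 4.3.3 (eBayes with a trend) after a pseudocount of 1 and a log2 transform, for the 12472 genes whose mean reached 10, with Benjamini-Hochberg adjustment over all of them. The pseudocount pulls fold changes of low genes towards 0, and on the log scale 1 very low sample weighs more than it does in a mean of counts. DESeq2 1.42.0 and edgeR 4.0.16 (quasi-likelihood, TMM) on recovered reads were alternatives, as were other pseudocounts, filters and scalings, a replicate block and each sample left out. The procedure was also run on simulated data, whose outcome is not given here, and no result rests on that run. Exon lengths and shared 50-base stretches came from a GRCm38 annotation, a different build from the one named, so levels per kb are approximate. Promoters were RefSeq windows of GRCm38.p6.

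The members and the lists of companion genes and markers were chosen with earlier results of these data known. Of the 29 members, 27 were named, and 2 are not reported here by name although counts over the members hold them. Values were given in every sample for efflux pumps, members at an unadjusted p under 0.05, the 3 largest changes in each direction and the highest named member of most subfamilies, and for others likewise. From the companion lists, genes with an unadjusted p under 0.05 or the smallest p were named. *Tap2* and *Kcnj8* were added as partners.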

Additional observations from a re-analysis of the deposited data

How the results depend on the processing

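The 3 ABC genes lower and 0 higher at an unadjusted p under 0.05 were 3 or 4 lower and 0 higher under 9 of 10 alternatives that kept all samples. With eBayes without a trend only 1, *Abcc6*, was left. With a replicate block there were 4 lower (*Abcd4* was added), but samples with the same number did not deviate together (correlation 0.0325), so the numbers are not a pairing. With each sample left out, where the lone sample of a group is assumed to vary like the others, 2 to 4 genes were lower, 0 to 4 higher, and the companion genes called were between 7 and 15, against 9 (the 15 without wild-type 2, where 12.6% of all genes were called). The median log2 fold change of the ABC genes, -0.06, was -0.088 in DESeq2, -0.091 in edgeR, 0.0017 after quantile normalization, -0.082 with a minimum mean of 50, and between -0.19 and 0.079 with a sample left out. It has no firm sign.

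With all samples kept, 3 members changed sign: *Abca7* (-0.088 in DESeq2 and -0.091 in edgeR), *Abcc5* (0.0017 by quantile normalization) and *Abcc9* (0.032 by quantile normalization). None was called. Leaving out a sample turned 12 of the named members, none called with all samples, over these ranges: *Abca1* -0.027 to 0.30, *Abca2* -1.63 to 0.21, *Abca5* -3.78 to 0.78, *Abca7* -1.19 to 3.92, *Abca9* -1.11 to 0.88, *Abcb10* -0.50 to 0.29, *Abcb1a* -0.14 to 0.16, *Abcb8* -0.20 to 0.49, *Abcc5* -0.54 to 0.51, *Abcc9* -0.31 to 0.19, *Abcd2* -0.0094 to 3.87 and *Abcf1* -0.14 to 0.48. The cause was not tested. *Foxq1* stayed lower under every alternative (-5.66 to -3.28 with a sample left out).

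With 2 samples a group and a median SE of 0.50 on the log2 scale over all genes, changes below about 2-fold in single genes mostly could not be seen, and a gene that was not called is not shown to be equal in the groups. Counting error is widest for *Abcb6*, with between 17 and 31 reads in a sample, and for *Abca5* in *Foxq1* cKO 2, with 6 reads.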
